A study of Mus musculus with 18 samples.

Results

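The 100 most abundant long non-coding RNAs (lncRNAs) were followed in mouse colon samples from a study of high fat feeding and dietary serine. They were chosen by their read counts: among all rows typed lncRNA in the deposited table, those with the largest sum of counts over the 10 serine-free libraries were kept. They are 100 of 9784 lncRNA rows, of which 3169 had a count in these libraries, and of 54354 rows in all. The SF_HFD group holds 5 libraries labelled Serine-free HFD, and the SF_CD group holds 5 labelled Serine-free CD; for the plain groups of the series the labels spell HFD and CD out as high fat and control diet. In the labels both groups are colon, of wild type genotype and of the cell type tumor, and no age, strain or sex is given. Their extraction protocol speaks of organoids, whereas the series' design text speaks of live sorted cells, so which of these was sequenced cannot be told from the labels.

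An lncRNA is a transcript that is not known to be translated into a protein. Some act as RNA in the nucleus: Malat1 collects in nuclear speckles, Neat1 is the scaffold of paraspeckles, and Xist coats the inactive X chromosome. Others serve as carriers: small nucleolar RNAs (snoRNAs), which guide chemical changes of ribosomal RNA, and microRNAs (miRNAs), which repress messenger RNAs through their seed bases, are cut out of host lncRNAs, and the spliced host is often degraded soon after it is translated. Libraries were made by poly(A) selection, and Malat1 is known to lack an ordinary poly(A) tail, its end being an A-rich triple helix.

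Sequences of members that carry small RNAs show what a count at the host stands beside. Of the 100 members, 6 contain an annotated miRNA and 16 an annotated snoRNA or small Cajal body RNA within their span. The mature miRNAs below come from RefSeq (GRCm38.p6), with the seed, bases 2 to 8, in capitals. They are products of Mir22hg, Gm49890, Mir100hg, Ftx and Gm17494, and the 7 seeds shown all differ. Not every annotated miRNA is shown: Mirlet7a-2 within Mir100hg and Mir1949 within Snhg4 are left out.
miR-22-3p of Mir22hg: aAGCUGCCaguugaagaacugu
miR-31-5p of Gm49890: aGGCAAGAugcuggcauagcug
miR-100-5p of Mir100hg: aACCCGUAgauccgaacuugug
miR-125b-5p of Mir100hg: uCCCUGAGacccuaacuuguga
miR-374b-5p of Ftx: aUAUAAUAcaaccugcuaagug
miR-421-5p of Ftx: cUCAUUAAauguuuguugaau
miR-760-3p of Gm17494: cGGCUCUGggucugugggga

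Many snoRNA hosts belong to the class of genes whose RNA begins with a C and a run of pyrimidines, a start also found at ribosomal protein genes. RefSeq starts were found for 13 of the 16 members with a nested snoRNA. At 4 of the 13 a listed RNA began with a C followed by at least 3 further C or T bases, read on the RNA strand only, and the same start was found at 4.49% of 27025 genes with a RefSeq start. The first 30 bases of these 4 starts are given with the leading run in capitals, and after them those of Snhg3 and Zfas1, which begin otherwise.
Gas5 (chr1:161035166-161035195, plus strand): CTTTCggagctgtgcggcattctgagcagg
Snhg8 (chr3:123508307-123508336, minus strand): CTCTTTggctgcgatccgcctacgagtatg
2410006H16Rik (chr11:62602877-62602906, plus strand): CTCTgcggccatcatgggatcgtgctcttc
1110038B12Rik (chr17:34952439-34952468, minus strand): CTCTTTgtgcacccgcccacacggtttgcc
Snhg3 (chr4:132353657-132353686, minus strand): gacttccgggcgttacttaaggtataaata
Zfas1 (chr2:167062934-167062963, plus strand): gcggccgcaggtctcggctggccccggagc

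Bc1 and Gm47551, next to Malat1 in counts, are shorter than 200 bases and share much of their sequence with other genes, which bears on how their counts are read. Bc1 is a rodent RNA made by RNA polymerase III, known as a repressor of translation in neurons. Its single exon lies on chromosome 7, and the capitals mark the bases that occur, in runs of at least 31, in annotated transcripts of other genes. Gm47551 is an annotated antisense transcript of 2 exons within Fcho2 on chromosome 13, and its capitals mark the 116 of 165 bases that occur in the same way in transcripts of Ftx. It shares such runs with 581 other genes, of which Ftx shares the most.
Bc1 (chr7:144914470-144914637, plus strand): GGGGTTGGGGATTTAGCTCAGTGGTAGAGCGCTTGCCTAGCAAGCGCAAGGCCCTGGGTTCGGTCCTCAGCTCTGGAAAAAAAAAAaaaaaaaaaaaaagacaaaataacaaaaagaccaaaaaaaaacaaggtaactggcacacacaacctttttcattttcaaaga
Gm47551 (chr13:98801172-98803736, plus strand, exons joined): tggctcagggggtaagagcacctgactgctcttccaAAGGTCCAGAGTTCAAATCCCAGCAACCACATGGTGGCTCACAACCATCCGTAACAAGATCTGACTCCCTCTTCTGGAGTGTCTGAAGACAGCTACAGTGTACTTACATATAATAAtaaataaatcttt

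Libraries differed widely in depth, and 3 of them were shallow. Totals ran from 727610 to 12146933 counts in SF_HFD and from 499774 to 12841275 in SF_CD, so that 3 counts were worth 0.226 to 6.76 CPM (counts scaled to a library of 1000000, after TMM normalisation). SF_HFD 5, SF_CD 1 and SF_CD 5 held under 1000000 counts each. SF_CD 1 and SF_CD 5 also had the largest shares of nuclear ribosomal RNA rows, at 15.1% and 7.82%, against 0.754% to 3.52% in the other 8 libraries. The summed level of 6 epithelial markers was 4074 to 6392 CPM in SF_HFD and 1914 to 4684 CPM in SF_CD, and that of 4 lymphocyte markers was at most 1.28 CPM in any library. Smooth muscle markers were higher in SF_HFD: all 6 were tested, 3 of them (Acta2, Actg2 and Myl9) were called, and their sum was 168 to 258 CPM in SF_HFD and 2.94 to 24.4 CPM in SF_CD. In bulk RNA, fewer cells of a type and less RNA per cell cannot be told apart. The 3 control diet and 5 high fat diet libraries without serine restriction were not used for the members, since the row labels of their columns did not name the genes: Malat1 held 1 count over these 8 libraries, and 62 members were at 0 in all of them.

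The members held 1.14% to 1.93% of all counts in the SF_HFD libraries and 1.03% to 13.0% in the SF_CD libraries. The upper end was SF_CD 1 alone, since SF_CD 5 followed with 2.55%. Together they accounted for 90.1% of all lncRNA counts. Malat1 made up 57.7% of the members' counts and the 10 largest members 81.9%, while the median member had 1515.5 counts. Fewer than 1000 counts were held by 17 members, and 14 were at 0 in at least 1 library. GENCODE M21 types 51 of them as lincRNA, 29 as processed transcript, 13 as antisense and 1, Gm47283, as protein coding. The median exon length of the members is 1890 bases. Without Malat1 the other 99 members were far more even, at 0.587% to 0.748% in SF_HFD and 0.618% to 0.920% in SF_CD. These shares use the counts that chose the members and are a description. At the border of the choice, Gm49708, Gm4013 and Gm26916 had 785, 785 and 782 counts, and the next rows, 4930447F24Rik, Tsix and Snhg9, had 754, 749 and 736.

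**Figure D1:**
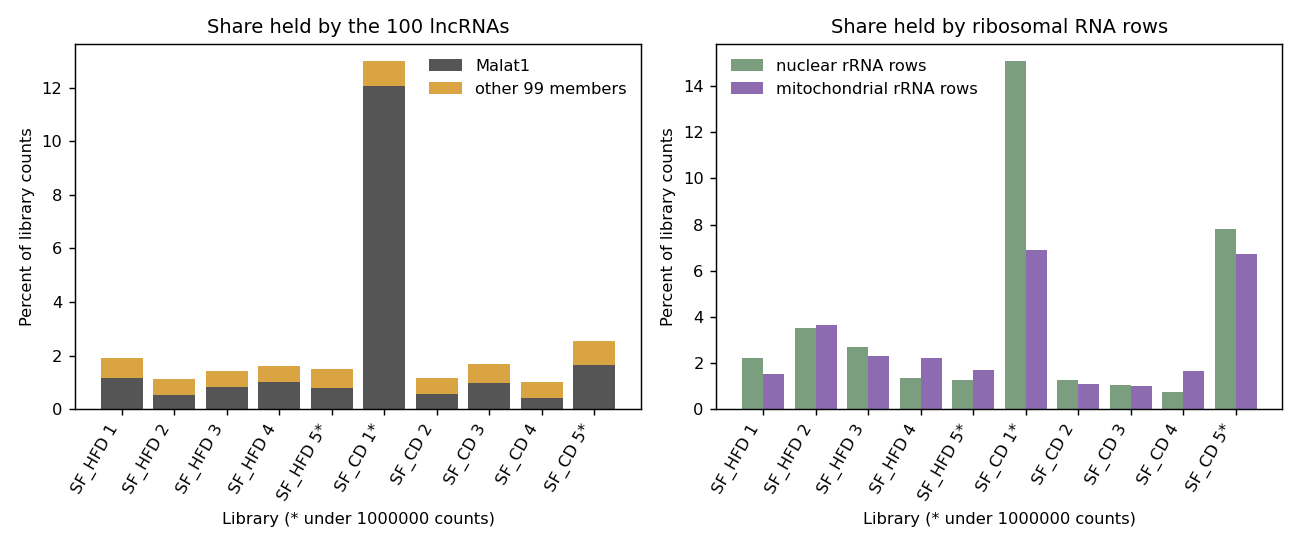
Share of each library's counts in percent, by library, SF_HFD left and SF_CD right. The left panel stacks Malat1 and the other 99 lncRNAs and the right panel shows ribosomal RNA rows; SF_CD 1, a shallow library, has the tallest bar in both, with 13.0% in the lncRNAs and 15.1% in nuclear ribosomal RNA.

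All 100 members passed the filter on low counts and were tested, and none was called between the diets at an adjusted p of 0.05 by edgeR's quasi-likelihood test. Over all genes the same test called 38 of 11780 (0.323%), 18 higher in SF_HFD (0.153%) and 20 lower (0.17%). At an unadjusted p under 0.05 there were 20 members, against 11.6% of all genes. Among these 20, 2700046A07Rik, 4930425O10Rik, Gm17322, Gm49708 and Gm12976, all lower in SF_HFD, drop out of the members when SF_CD 4 is not ranked. The numbers of such members and of negative fold changes are therefore partly set by the choice of members. DESeq2 called 7 members, against 2.54% of all genes (1.87% lower in SF_HFD), and limma-voom called 2, against 1.43% (0.611% lower). All of these members were lower in SF_HFD. However, 4 of the 7 (2700046A07Rik, 4930425O10Rik, Gm17322 and Gm49708) are among those that drop out when SF_CD 4 is not ranked. Among members 44 had a positive and 56 a negative log2 fold change, with a median of -0.16, and the median of all genes tested was 0.02. The median standard error (SE) of a member's log2 fold change was 0.45. In counts simulated from these libraries, recovery was taken over the changed genes that passed the filter. The test recovered none of those changed 2-fold and 53.3% of those changed 4-fold, and it also called 6 unchanged genes. Differences of about 2-fold were therefore not detectable here.

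**Figure D2:**
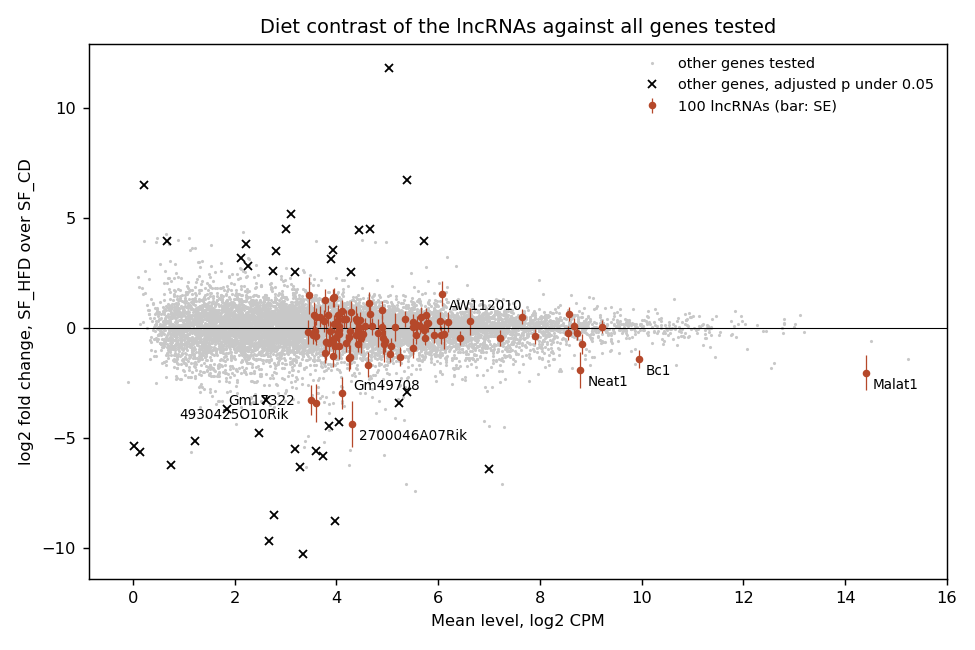
log2 fold change of SF_HFD over SF_CD (vertical) against mean log2 CPM (horizontal) for the 11780 genes tested. Red points are the 100 lncRNAs with bars of 1 SE, crosses the other genes with an adjusted p under 0.05; no lncRNA is called, and the lowest red points are 2700046A07Rik at -4.36, 4930425O10Rik at -3.40 and Gm17322 at -3.26.

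Malat1 was the most abundant member in every library. It stood at 12960, 4419, 8278, 9216 and 7364 CPM in SF_HFD 1 to 5 and at 135900, 5856, 10960, 3990 and 16970 CPM in SF_CD 1 to 5. The lowest and the highest value were both in SF_CD, so the groups overlapped fully. The log2 fold change was -2.04 ± 0.80 (SE, adjusted p = 0.340). Without SF_CD 1 it was -0.15, and without the 3 shallow libraries it was 0.33 (adjusted p = 0.701). In the 7 deeper libraries Malat1 averaged 8718 ± 3508 CPM in SF_HFD (SD, n = 4) and 6935 ± 3608 CPM in SF_CD (SD, n = 3), and it ranged 3.25-fold.

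Neat1 was also highest in SF_CD 1, at a far lower level. It had 247.9, 77.4, 213, 161 and 245 CPM in SF_HFD and 2509, 78.0, 131, 100.1 and 701 CPM in SF_CD. Again SF_CD 1 and SF_CD 5 were the highest and the other 3 SF_CD libraries were below 4 of the 5 SF_HFD libraries. Its log2 fold change was -1.89 ± 0.81 (SE, adjusted p = 0.382), -0.38 without SF_CD 1, and 0.77 without the 3 shallow libraries. The genes of the bodies in which both RNAs reside were tested alongside: none of 12 paraspeckle protein genes and none of 11 nuclear speckle protein genes was called. The summed level of the speckle protein genes was 2478 to 2832 CPM in SF_HFD and 3051 to 6010 CPM in SF_CD, highest in SF_CD 1 and next in SF_CD 5, as for Malat1 and Neat1. That of the paraspeckle protein genes was 1547 to 1929 CPM in SF_HFD and 1567 to 2198 CPM in SF_CD. Within SF_CD it was lowest in SF_CD 1, where Neat1 was highest.

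Per kilobase of annotated exon the order of levels changed. Bc1 led with a median of 4585 CPM per kilobase over the 10 libraries, followed by Gm47551 with 3510 and Malat1 with 1252. Next was 2410006H16Rik, a host of Snord49a, Snord49b and Snord65, with 410 CPM per kilobase. Neat1, with 20771 bases of exon, took place 66 with 8.996 CPM per kilobase, and Kcnq1ot1, with 93092 bases, place 99 with 0.394. A ranking by counts per kilobase would have kept 77 of the 100 members.

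**Figure D3:**
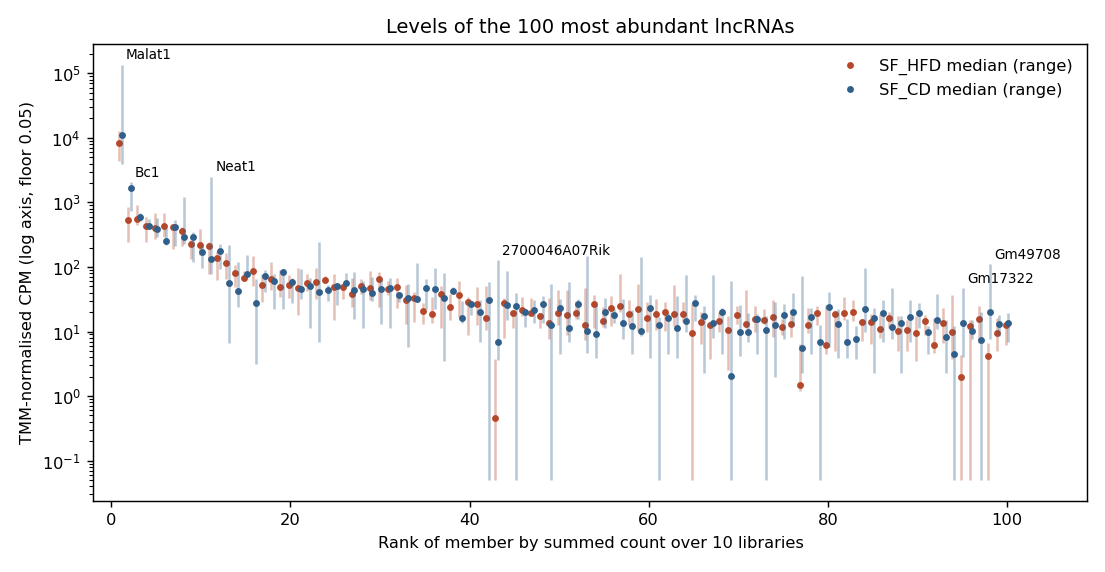
TMM-normalised CPM on a log axis for the 100 lncRNAs in order of summed count. Red points are SF_HFD medians and blue points SF_CD medians over 5 libraries each, with lines from the lowest to the highest library and zeros drawn at 0.05; levels fall off steeply after Malat1, at 8278 CPM (SF_HFD) and 10960 CPM (SF_CD), and the lines of all but 5 lncRNAs overlap between the groups.

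Bc1 was lower in SF_HFD on average, with little overlap. The 5 SF_HFD libraries had 855, 244, 322, 533 and 728 CPM, and the 5 SF_CD libraries had 1691, 796, 1863, 744 and 2060 CPM. Only SF_HFD 1 reached into the range of SF_CD. Bc1 had a log2 fold change of -1.42 ± 0.41 (SE, adjusted p = 0.187), and leaving out single libraries moved it between -1.65 and -1.23. DESeq2 gave an adjusted p of 0.0393, and the other 19 alternative settings called no difference. Of the words of 31 bases in Bc1, 40.6% also occur in other genes, as the capitals above show, so part of its reads can come from elsewhere. Of its 56 shared words 52 occur in Lrrc17, which held 23 counts against 53769 for Bc1. How many reads came from elsewhere was not tested.

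The snoRNA hosts showed no common shift between the diets. The 16 members with a nested snoRNA summed to 961 to 1781 CPM in SF_HFD and 951 to 1506 CPM in SF_CD. None was called, 9 were positive and 7 negative, and their median log2 fold change was 0.083. Over the 7 deeper libraries their median ratio of highest to lowest was 2.50, against 3.04 for all members. Gas5, with 9 annotated small RNAs within its span, had 590, 245, 455, 428 and 241 CPM in SF_HFD and 410, 550, 499, 431 and 407 CPM in SF_CD. The difference was -0.23 ± 0.32 on the log2 scale (SE, adjusted p = 0.835). SF_HFD held both its lowest and its highest library. 2410006H16Rik averaged 237 ± 89.8 CPM in SF_HFD and 165 ± 44.8 CPM in SF_CD (n = 5 each, SD; log2 fold change 0.52, adjusted p = 0.580, and 0.27 without SF_HFD 1). Snhg8, the host of Snora24, averaged 52.9 ± 17.6 CPM in SF_HFD and 66.6 ± 18.2 CPM in SF_CD (n = 5 each, SD). Zfas1 averaged 49.4 ± 23.2 CPM in SF_HFD and 44.9 ± 12.8 CPM in SF_CD (n = 5 each, SD). Both differences were smaller than the spread within the groups.

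Dancr, the host of Snora26, varied more widely. Its SF_HFD libraries had 12.8, 13.4, 13.9, 10.3 and 3.79 CPM, and its SF_CD libraries 13.5, 7.82, 13.6, 36.2 and 73.99 CPM (log2 fold change -1.31, adjusted p = 0.371). Without SF_CD 5 the log2 fold change was -0.70, and by limma-voom it was -0.23. SF_CD 4 and SF_CD 5 stood above all others, and SF_CD 1 to 3 lay with SF_HFD. Of a list of 21 snoRNA hosts, 19 were tested, none was called, 10 were positive, and the median was 0.08. The 8 core proteins of snoRNA particles, all tested, also had no call. Among 10 factors of nonsense-mediated decay, the pathway that clears many spliced hosts, none was called. Their sum was also highest in SF_CD 1 and next in SF_CD 5, at 1084 and 563 CPM, and was 178 to 308 CPM in SF_HFD.

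Xist and Ftx, both of the X inactivation centre, differed in pattern. Xist had 379, 409, 328, 364 and 208 CPM in SF_HFD and 1208, 225, 255, 293 and 868 CPM in SF_CD. It was highest in SF_CD 1 and SF_CD 5, as were Malat1 and Neat1. In the 7 deeper libraries the order was the other way, with 369.9 ± 33.9 CPM in SF_HFD (SD, n = 4) and 257 ± 34.2 CPM in SF_CD (SD, n = 3). The log2 fold change was -0.75 ± 0.45 over 10 libraries (SE, adjusted p = 0.544), -0.26 without SF_CD 1 and 0.52 without the 3 shallow ones. Every library held Xist, with 165 to 4824 counts, and 4 Y-linked genes summed to at most 0.925 CPM in SF_HFD and 0.110 CPM in SF_CD.

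Ftx, which lies next to Xist and is known to promote its expression in mouse, had 684, 274, 320, 405 and 440.8 CPM in SF_HFD and 575, 293, 410, 302 and 393 CPM in SF_CD. The groups coincided, with a log2 fold change of 0.11 ± 0.33 (SE, adjusted p = 0.935). Tsix, the antisense partner of Xist and just below the members in counts, ran from 1.66 to 50.4 CPM in SF_HFD and from 1.68 to 38.3 CPM in SF_CD. Whether Tsix and Xist reads were fully told apart depends on strand handling in the counting, which is not given in the sources used here.

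The imprinted members were Snhg14 and Kcnq1ot1, both long RNAs made from the paternal chromosome and antisense to a coding gene. Snhg14 had 260, 231, 171, 132 and 259 CPM in SF_HFD and 120, 307, 346, 296 and 280 CPM in SF_CD (log2 fold change -0.36 ± 0.34 SE, adjusted p = 0.729). Apart from SF_CD 1, each SF_CD library lay above every SF_HFD library. Its antisense partner Ube3a had a log2 fold change of -0.11 (adjusted p = 0.954). Kcnq1ot1 averaged 35.04 ± 14.6 CPM in SF_HFD and 36.9 ± 32.7 CPM in SF_CD (n = 5 each, SD). Its SF_CD libraries ran from 3.50 to 81.8 CPM, with the 2 lowest and the 2 highest values of all 10 libraries. In the 7 deeper libraries Kcnq1ot1 stood at 34.8 to 51.2 CPM in SF_HFD and 3.50 to 33.6 CPM in SF_CD. Its log2 fold change was 0.05 over 10 libraries (adjusted p = 0.986) and 2.02 by limma-voom, which did not call it.

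Among the miRNA hosts, Mir22hg had 22.8, 19.8, 28.7, 24.6 and 77.1 CPM in SF_HFD and 31.6, 13.6, 16.1, 10.6 and 7.79 CPM in SF_CD. All SF_HFD libraries lay above every SF_CD library except SF_CD 1. The log2 fold change was 1.14 ± 0.48 (SE, adjusted p = 0.366), and 0.65 without SF_HFD 5. Mir100hg, which spans the genes of miR-100 and miR-125b, had 7.33, 12.4, 36.2, 47.9 and 8.84 CPM in SF_HFD and 146.5, 10.4, 10.1, 4.63 and 40.9 CPM in SF_CD. Its log2 fold change was -0.74 ± 0.83 (SE, adjusted p = 0.785), and it turned to 0.75 without SF_CD 1 and to 1.64 without the 3 shallow libraries. Gm17494, the host of miR-760, averaged 344 ± 111 CPM in SF_HFD and 401 ± 119 CPM in SF_CD (n = 5 each, SD). Gm49890, which spans the gene of miR-31, averaged 14.2 ± 7.32 CPM in SF_HFD and 12.1 ± 7.31 CPM in SF_CD (n = 5 each, SD). Snhg4, which holds Mir1949, averaged 19.1 ± 6.12 CPM in SF_HFD and 28.0 ± 26.7 CPM in SF_CD (n = 5 each, SD), and its highest library was SF_CD 1. The poly(A) selected libraries measured the hosts, not the mature miRNAs.

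Norad, which binds Pumilio proteins and guards chromosome stability, was among the least variable members. It had 77.2, 86.0, 64.8, 66.6 and 66.95 CPM in SF_HFD and 124, 78.0, 75.5, 74.3 and 152 CPM in SF_CD. The 7 deeper libraries differed 1.33-fold, and SF_CD 1 and SF_CD 5 stood above them. Over the 7 deeper libraries the ratio of highest to lowest was under 2 for 15 members, from 2 to 5 for 57 and over 5 for 28, with a median of 3.04. The smallest ratio was that of 4632427E13Rik, a divergent neighbour of Rab30, at 1.32. Oip5os1, known as Cyrano and for promoting the decay of miR-7, averaged 44.7 ± 11.2 CPM in SF_HFD and 61.5 ± 12.2 CPM in SF_CD (n = 5 each, SD; adjusted p = 0.622). Bvht, an RNA of heart cell commitment in mouse embryonic stem cells, averaged 22.1 ± 12.9 CPM in SF_HFD and 19.8 ± 13.1 CPM in SF_CD (n = 5 each, SD). In the 7 deeper libraries it stood at 12.5 to 21.3 CPM in SF_HFD and 22.8 to 32.1 CPM in SF_CD. The groups of Xist, Kcnq1ot1, Snhg14, B930036N10Rik and 1700120C14Rik were also apart in these libraries. The share of all genes that were apart there was not counted.

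Morrbid was one of 5 members whose groups did not overlap, against 3.65% of all genes tested. It is known in mouse to hold down the cell death gene Bcl2l11 in short-lived myeloid cells. Morrbid had 15.3, 18.7, 38.1, 23.8 and 26.5 CPM in SF_HFD and 40.6, 39.1, 48.5, 42.2 and 42.8 CPM in SF_CD. SF_HFD 3 lay just under the lowest SF_CD library, and the SF_CD libraries were tightly grouped (log2 fold change -0.81 ± 0.34 SE, adjusted p = 0.371). Of 6 macrophage marker genes 3 were tested, and Fcer1g was called, at 0 to 0.0755 CPM in SF_HFD and 1.37 to 5.84 CPM in SF_CD. The 6 markers summed to 7.37 to 41.7 CPM in SF_HFD and 33.0 to 115 CPM in SF_CD; the part of such cells in Morrbid's difference was not tested.

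The other members without overlap were Gm49708, lower in SF_HFD, and Gm20427, 4930527F14Rik and Gm30414, higher in SF_HFD. None of these passed the adjusted threshold, and for Gm30414 the lowest SF_HFD and the highest SF_CD value both round to 12.67 CPM. Gm20427 had 63.3, 71.9, 59.5, 60.5 and 70.7 CPM in SF_HFD and 29.3, 44.7, 51.8, 46.4 and 38.9 CPM in SF_CD (log2 fold change 0.60 ± 0.30 SE, adjusted p = 0.455). It overlaps exons of H2-Ke6 and Slc39a7 on the same strand and shares 92.9% of its words of 31 bases with other genes. Over the 10 libraries 3931 counts went to Gm20427, 162 to H2-Ke6 and 107 to Slc39a7, so the count of these 3 genes rests on how reads were divided.

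Gm13075 was among the 10 members with most counts. Its SF_HFD libraries had 691, 366, 432, 290.3 and 517 CPM, and its SF_CD libraries had 255, 401, 348, 219 and 257 CPM. The 2 highest values were in SF_HFD and the 3 lowest were SF_CD 1, 4 and 5 (log2 fold change 0.63 ± 0.32 SE). At the other end of the ranking, Gm4013 averaged 9.86 ± 4.55 CPM in SF_HFD and 13.0 ± 3.47 CPM in SF_CD (n = 5 each, SD). Gm26916 averaged 10.5 ± 3.90 CPM in SF_HFD and 13.3 ± 4.57 CPM in SF_CD (n = 5 each, SD). Both differed by less than the spread between libraries.

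AW112010 had the largest positive log2 fold change of the members, 1.56 ± 0.58 (SE, adjusted p = 0.312). It is known in mouse macrophages for a small protein translated from it. AW112010 had 67.1, 50.01, 146, 86.0 and 150.3 CPM in SF_HFD and 27.1, 43.3, 65.9, 3.11 and 27.3 CPM in SF_CD. Only SF_CD 3 exceeded any SF_HFD library, and SF_CD 4 was the lowest. None of its 31-base words occurs in another gene.

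The next largest positive values belonged to Gm9926, 4930527F14Rik, Gm53015 and Gm30414, for which no function is given here. 4930527F14Rik, which starts 240 bases from Fermt2 on the opposite strand, had 25.1, 19.4, 19.98, 14.3 and 30.3 CPM in SF_HFD and 11.3, 7.16, 12.3, 3.72 and 7.79 CPM in SF_CD (log2 fold change 1.397 ± 0.42 SE, adjusted p = 0.207). Fermt2 itself, an integrin adaptor, had a log2 fold change of -3.86 (adjusted p = 0.232), and 1099 and 97 of its 1384 counts were in SF_CD 4 and SF_CD 5. Gm53015 averaged 21.95 ± 7.26 CPM in SF_HFD and 7.85 ± 4.404 CPM in SF_CD (n = 5 each, SD; log2 fold change 1.36, adjusted p = 0.219). It lies within Rps6ka4 on the same strand with 99.84% of its words shared, and held 1028 counts against 48 for Rps6ka4. Gm30414 averaged 18.6 ± 4.80 CPM in SF_HFD and 7.02 ± 5.49 CPM in SF_CD (n = 5 each, SD; log2 fold change 1.26, adjusted p = 0.360). Gm9926 ran from 3.79 to 37.2 CPM in SF_HFD and from 0 to 12.1 CPM in SF_CD (log2 fold change 1.48, adjusted p = 0.517, and 0.84 without SF_HFD 1), so its groups overlapped.

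The largest negative values, ahead of that of Malat1, were those of 2700046A07Rik, 4930425O10Rik, Gm17322 and Gm49708. 2700046A07Rik had 3.26, 0.230, 3.79, 0.453 and 0 CPM in SF_HFD and 6.76, 3.97, 3.64, 127 and 44.8 CPM in SF_CD. SF_CD 4 and SF_CD 5 were high, and the other 8 libraries lay below 7 CPM. The log2 fold change was -4.36 ± 1.06 (SE, adjusted p = 0.107), and -2.84 without SF_CD 4. 4930425O10Rik had the same pair of high libraries, with 1.27, 2.77, 1.48, 1.21 and 6.32 CPM in SF_HFD and 2.25, 3.97, 5.47, 71.3 and 19.5 CPM in SF_CD. Its log2 fold change was -3.40 ± 0.86 (SE, adjusted p = 0.120), and -1.74 without SF_CD 4.

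Gm17322 came nearest to the threshold. It had 4.34, 2.07, 1.94, 1.13 and 0 CPM in SF_HFD and 11.3, 13.8, 4.06, 47.1 and 27.3 CPM in SF_CD. All SF_CD libraries exceeded all SF_HFD libraries but for SF_CD 3, which lay just under SF_HFD 1. The log2 fold change was -3.26 ± 0.67 (SE, adjusted p = 0.0515), and over the 20 alternative settings it stayed between -3.77 and -2.62 with adjusted p from 0.000198 to 0.222, under 0.05 in 6 of them. Gm17322 overlaps part of an exon of Cyp11a1, an enzyme of steroid synthesis, on the same strand; Cyp11a1 had 0 counts in SF_HFD and 27 in SF_CD. Gm49708 had 2.08, 4.15, 6.66, 5.74 and 0 CPM in SF_HFD and 9.02, 23.6, 7.71, 20.2 and 111 CPM in SF_CD (log2 fold change -2.97 ± 0.74 SE, adjusted p = 0.111), and -1.93 without SF_CD 5.

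The place of these 4 members among the 100 depends on the deepest library. Ranked without SF_CD 4, the list keeps 95 members and loses 2700046A07Rik, 4930425O10Rik, Gm17322, Gm49708 and Gm12976. SF_CD 4 held 1673 of the 1845 counts of 2700046A07Rik and 939 of the 1088 counts of 4930425O10Rik. It held 266 of the 785 counts of Gm49708, a border member that is also lost when the 3 shallow libraries are not ranked. The direction of these 4 members is therefore partly set by the choice of members.

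SF_CD 4 and SF_CD 5 stood together for several members. They were the 2 highest of the 10 libraries for 9 members and the 2 lowest for 9 others, against 5.03% and 4.22% of all genes tested. SF_CD 4, the deepest library, weighs most in the choice of members, so the number of members highest there is partly set by that choice. The first set held 2700046A07Rik, 4930425O10Rik, Gm17322, Dancr, Snhg6, 1300002E11Rik, Gm26737, B930036N10Rik and 1700120C14Rik. B930036N10Rik averaged 22.5 ± 9.32 CPM in SF_HFD and 54.7 ± 28.1 CPM in SF_CD (n = 5 each, SD; log2 fold change -1.31, adjusted p = 0.234), and 1700120C14Rik averaged 20.6 ± 5.25 CPM in SF_HFD and 45.5 ± 17.2 CPM in SF_CD (n = 5 each, SD; log2 fold change -1.16, adjusted p = 0.228). Both were called by DESeq2 and by limma-voom. SF_CD 1 and SF_CD 5, the pair rich in ribosomal RNA, were the 2 highest for 8 members, among them Malat1, Neat1, Xist, Kcnq1ot1 and Norad, and the 2 lowest for 16. Over all genes these shares were 12.6% and 20.6%, so neither was more frequent among the members. The part of ribosomal RNA content in these values was not tested.

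**Figure D4:**
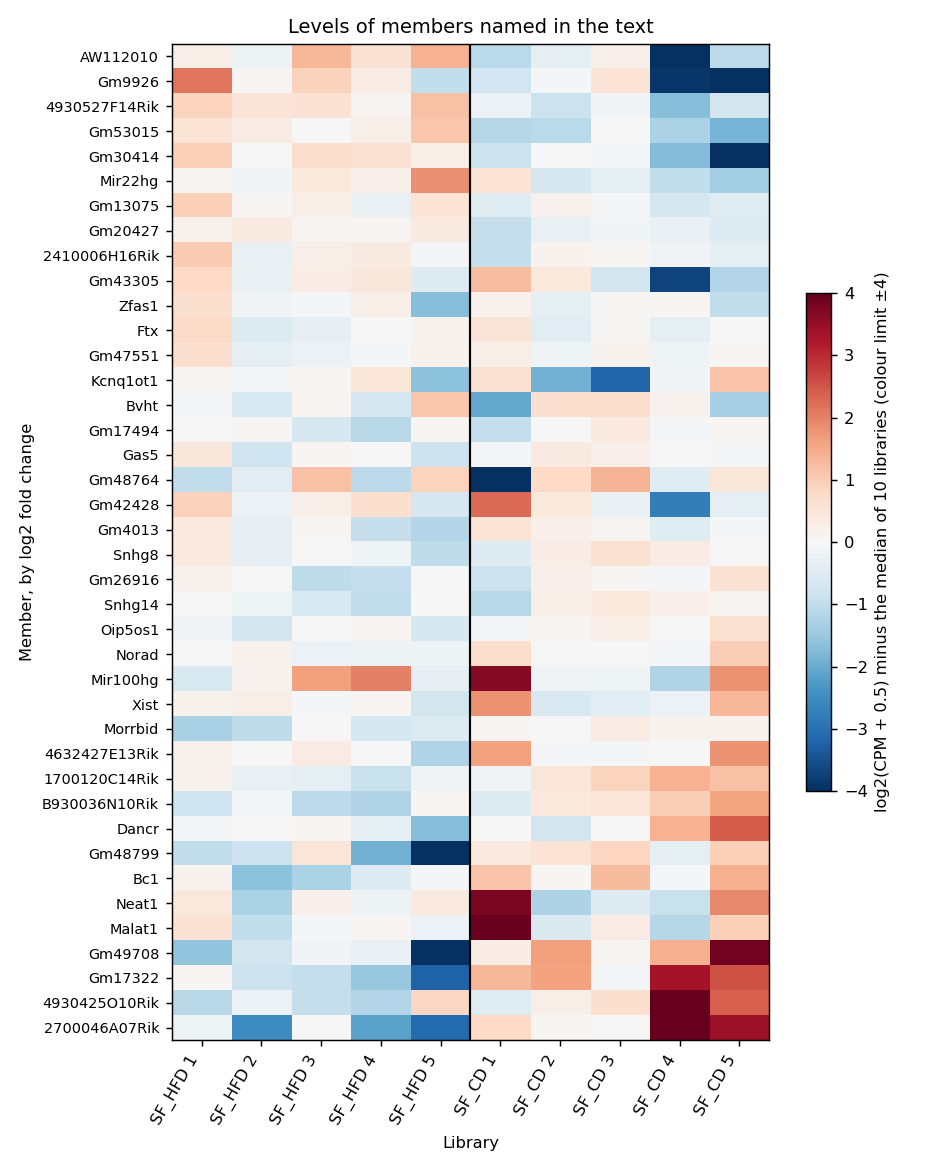
Each row is a named lncRNA and each column a library, SF_HFD left of the line and SF_CD right. Colour gives log2(CPM + 0.5) minus the row's median; SF_CD 4 and SF_CD 5 are red for 2700046A07Rik, 4930425O10Rik and Gm17322, and SF_CD 1 is dark red for Malat1, Neat1 and Mir100hg.

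Members were also read beside the coding genes they adjoin. Of the 100, 23 lie antisense to a coding gene, 13 start within 1000 bases of a coding start on the opposite strand, and 12 overlap coding exons on the same strand. Of 19 antisense pairs with a tested coding partner, no partner was called, and in 9 the fold changes had the same sign. Of 12 divergent pairs with a tested partner no partner was called and 5 had the same sign. Same-strand pairs were taken from 16 members whose span overlaps that of a coding gene, with or without overlap of exons. Of their 9 pairs with a tested partner no partner was called and 6 had the same sign. The 23 antisense members had a median log2 fold change of -0.13 and the 13 divergent members one of 0.16. Hif1a, the hypoxia regulator opposite Gm15283, had a log2 fold change of 0.97 (adjusted p = 0.356).

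Near-copies set a limit on several members. At least 50% of the 31-base words were shared with other genes for 15 members, and none for another 15. Gm47551 shared 92.6% of its words, with 581 other genes of which Ftx held the most. Its counts followed those of Ftx. The ratio of Gm47551 to Ftx lay between 1.33 and 1.76 in the 7 deeper libraries and between 1.19 and 1.52 in the shallow ones. Its ratio to Zfas1, which holds only 20.7% of its words, was about as steady, at 9.61 to 13.2 in the deeper libraries. A steady ratio was thus not particular to Ftx. Gm47551 had 912, 450, 490, 563 and 639 CPM in SF_HFD and 683, 514, 632, 515 and 596 CPM in SF_CD, with a log2 fold change of 0.06 ± 0.29 (SE, adjusted p = 0.963). Gm10076 shared 84.2% of its words, 291 of them with Rpl41, a ribosomal protein gene of 647715 counts, against 4251 for Gm10076. Gm49207 shared sequence with Ahsa1, a co-chaperone gene, and held 4131 counts against 2137 for Ahsa1. Gm48161 held 1457 counts against 1068 for Noct, and Gm44597 held 998 against 1120 for Ing4.

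Gm43305 and Gm42428 lie on chromosomes 14 and 5 and have 185 words in common, which is 68.0% of those of Gm42428. Both were lowest in SF_CD 4, at 6.60 and 6.98 CPM, and both highest in SF_CD 1, at 219 and 241 CPM. In SF_HFD they had 64.4 to 163 and 31.6 to 95.2 CPM. Gm48764 and Gm48799, on chromosomes 12 and 13, have 2794 words in common, and their ratio ran from 1.10 to 2.31 in the deeper libraries. In SF_HFD 5 Gm48764 had 33 counts and Gm48799 had 0, and in SF_CD 1 Gm48764 had 0 and Gm48799 had 11. Their separate values are uncertain, and so is the log2 fold change of -1.35 of Gm48799 (adjusted p = 0.387, and -2.06 without SF_HFD 3).

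**Figure D5:**
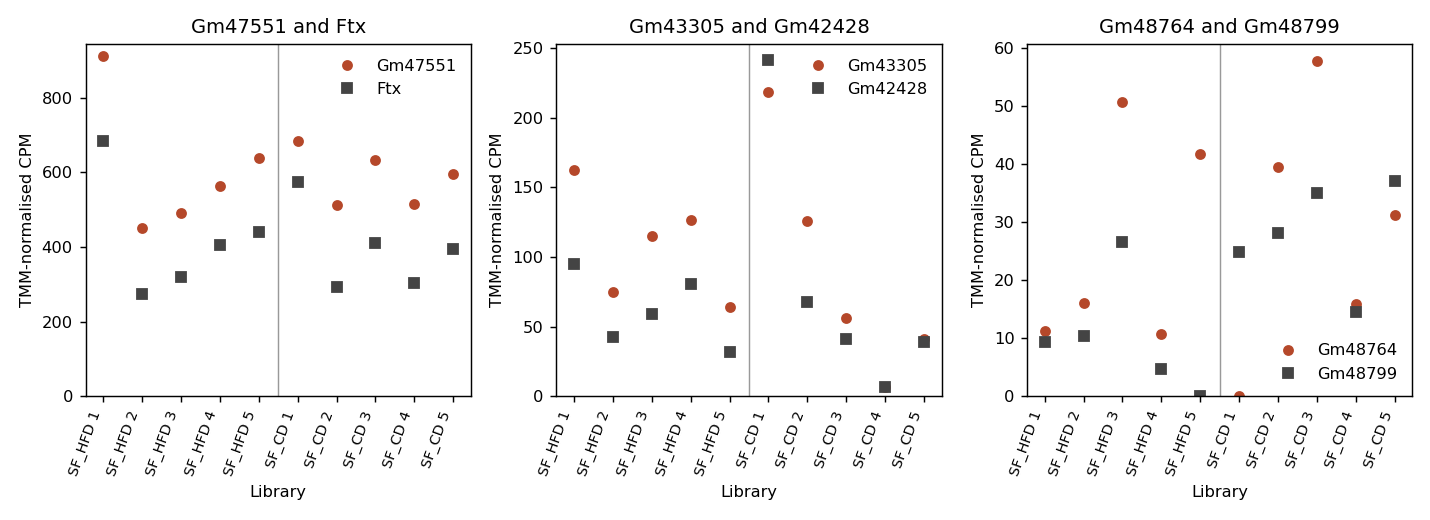
TMM-normalised CPM by library for pairs of lncRNAs that share sequence, SF_HFD left of the line and SF_CD right. Gm47551 and Ftx keep a steady ratio, Gm43305 and Gm42428 are both lowest in SF_CD 4, and Gm48764 and Gm48799 part in SF_HFD 5 and SF_CD 1.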

How the data were processed

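Poly(A) selected, directional RNA libraries were sequenced (labels' protocols). A single table of estimated counts, as whole numbers, was deposited by the authors. Salmon 1.3.0 and build mm10 are named in the submitters' processing notes; which annotation was used is not given in the sources used here. Coordinates, exon lengths, neighbours and shared 31-base words came from GENCODE M21 of the same build, in which all 100 members were found, and sequences from it and RefSeq GRCm38.p6 (starts matched for 50 members). The 10 serine-free libraries were compared with edgeR 4.0.16 (quasi-likelihood, robust, TMM, filterByExpr, Benjamini-Hochberg over 11780 genes, 0.05) in R 4.3.3. DESeq2 1.42.0 and limma 3.58.1 (voom with quality weights) were alternatives. The test was checked on simulated data. CPM are TMM-normalised. The labels do not say that libraries come from separate animals, so p-values measure the spread between libraries. Floors cover counting error only. The members and lists were chosen with earlier results of these data known. Named were Malat1, Neat1, the 10 largest members, the 5 largest fold changes each way, up to 4 per role list and ranks 98 to 100; further members were chosen after their values were seen.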

Additional observations from a re-analysis of the deposited data

Results flagged for a closer look

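In groups of 5 libraries, a library was marked where its gap to the nearest other, divided by the group's range, exceeded 0.71; chance marks about 1 in 20 groups, and 92 groups were examined. SF_CD 1 stood apart in 8 of these, by the members' share of counts (13.0%), the shares of Malat1 (12.1%) and Neat1 (0.223%), and the levels of Malat1 (136000 CPM), Neat1 (2510 CPM), Gm42428 (241 CPM), Mir100hg (146 CPM) and, as the lowest, Snhg14 (120 CPM). These 8 are not separate observations. Malat1 made up 92.9% of the members' counts in SF_CD 1, and the share and the level of Malat1, like those of Neat1, rest on the same counts. SF_CD 3 stood apart for Gm53015 (15.4 CPM), SF_CD 4 for 4930425O10Rik (71.3 CPM) and SF_CD 5 for Gm49708 (111 CPM). SF_HFD 5 stood apart for Mir22hg (77 CPM) and Bvht (44.2 CPM). Over all 100 members, 20 of 200 groups were marked, 10 of them through SF_CD 1.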

How the results depend on the processing

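All genes called numbered 38, against 78 with no filter, 73 with a stricter filter, 298 by DESeq2, 168 by limma-voom and 22 with the replicate block; leaving out single libraries gave 16 to 88. Members called numbered 1 with upper-quartile scaling, 1 with no filter and 1 with the stricter filter (Gm17322 each time), 7 by DESeq2, 2 by limma-voom, and 0 to 2 when single libraries were left out. The median of all genes moved from 0.02 to 0.17 with library totals only, and the members' median lay between -0.21 and 0.02 over all settings.

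Without the 3 shallow libraries the log2 fold change was 0.33 for Malat1, 0.77 for Neat1, 0.52 for Xist, 1.64 for Mir100hg, 0.85 for Gm42428 and 0.19 for 4632427E13Rik, of opposite sign to that over 10 libraries. By limma-voom it was 0.59 for Neat1, 0.19 for Xist, 1.48 for Mir100hg, 0.74 for Gm42428, 0.02 for 4632427E13Rik and -0.01 for Gm47551. RLE scaling and DESeq2 both gave -0.03 for Gm47551, and -0.09 and -0.16 for Kcnq1ot1. Bvht, at -0.01, was at 0.15 with library totals only and at 0 with no filter. Deviations of same-numbered libraries from their group means had correlations of -0.211 to 0.136. These values show no clear pairing by replicate number but cannot exclude it. With the replicate block Bvht was at 0.07, Mir100hg at 0.02 and Gm42428 at 0.20. The cause of these turns was not tested.

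Leaving out single libraries moved Gm47551 between -0.13 and 0.15, Ftx between -0.13 and 0.29, Kcnq1ot1 between -0.27 and 0.60, Mir100hg between -1.26 and 0.75, Bvht between -0.37 and 0.20, Zfas1 between -0.08 and 0.36, Gm42428 between -0.63 and 0.70, Gm43305 between -0.03 and 0.92 and Gm48764 between -0.66 and 0.18. Depth limits the 3 shallow libraries most: 46 members had at least 10 counts in SF_CD 1.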
